A study of Mus musculus with 6 samples.

Results

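The matricellular proteins are secreted into the extracellular matrix, where they act on cells more than they bear load. The set described here holds the tenascin C gene Tnc and 9 others, namely Fn1, Spp1, Thbs1, Thbs2, Postn, Sparc, Tgfbi, Vcan and Bgn. Members were taken by gene symbol, and each of the 10 had 1 row among the 32973 genes of the deposited table. Of the 10, 9 had a mean of at least 1 FPKM (fragments per kilobase of transcript, scaled to the mapped fragments of each library) over the 6 libraries and were tested, while Tgfbi lay below it. The study profiled RNA of primary mouse muscle stem cells from skeletal muscle, sorted by flow cytometry and grown for 3 days on type I collagen in growth medium that held serum and bFGF, a fibroblast growth factor. The 3 control libraries (Ctrl) came from Med23flox/flox cells, and the 3 knockout libraries (Med23KO) from Med23flox/flox::Pax7CreERT2 cells, in which the Pax7 promoter drives a Cre that tamoxifen activates. Both groups therefore carried the loxP-flanked Med23 alleles and only the knockout carried Cre, so effects of Cre and of Med23 loss cannot be told apart. The labels list no treatment for either group and give no age.

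Tenascin C is a large glycoprotein of developing and injured tissue that loosens the grip of cells on fibronectin. In muscle it is part of the stem cell niche after injury. Fibronectin, osteopontin (Spp1), periostin and the TGF-beta-induced protein Tgfbi bind integrins, the receptors that tie cells to the matrix. Thrombospondins bind the receptor CD47 and several integrins, SPARC binds collagen, and versican (Vcan) and biglycan (Bgn) are proteoglycans. Several members are known targets of TGF-beta.

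Within the set, Tnc was the single member that passed the test, and it was lower in the knockout. Its mean fell from 184 ± 32.2 FPKM in the controls to 55.9 ± 16.2 FPKM in the knockouts (SD, n = 3 each), 30.4% of the control level. Spp1, by far the most abundant member, was also below every control in each knockout library, at 46.0% of the control mean, but missed the threshold. Thbs2, Vcan and Sparc were above every control in each knockout library, at 142%, 136% and 149% of the control mean, and missed it too. Fn1, Thbs1, Postn and Bgn had groups that overlapped. Among all 12336 tested genes, 2.91% passed and 24.7% had groups that did not overlap. The Tnc call held in 3 of the 6 fits with 1 library left out.

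The base sequence just upstream of 3 members is shown because Tnc and Spp1 were both lower in all knockout libraries while Thbs2, the member nearest to the threshold, was higher. The sequences are the 250 bases before the RefSeq start nearest to the annotated gene start (GRCm38.p6, the assembly also called mm10), 5′ to 3′ on the gene's strand, with capitals where a script found one of the motifs named after them. The windows are chr4:64047016-64047265, minus strand, for Tnc, chr5:104434861-104435110, plus strand, for Spp1, and chr17:14694263-14694512, minus strand, for Thbs2.
Tnc: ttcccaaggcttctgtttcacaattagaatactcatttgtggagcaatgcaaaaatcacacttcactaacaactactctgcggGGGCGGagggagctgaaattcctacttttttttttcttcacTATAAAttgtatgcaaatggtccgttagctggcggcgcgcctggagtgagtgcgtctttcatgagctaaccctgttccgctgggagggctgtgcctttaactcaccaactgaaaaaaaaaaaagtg
Spp1: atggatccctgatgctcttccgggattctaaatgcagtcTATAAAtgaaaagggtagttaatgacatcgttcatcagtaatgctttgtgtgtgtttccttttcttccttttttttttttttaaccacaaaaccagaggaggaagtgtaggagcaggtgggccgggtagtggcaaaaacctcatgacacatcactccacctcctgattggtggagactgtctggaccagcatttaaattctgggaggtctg
Thbs2: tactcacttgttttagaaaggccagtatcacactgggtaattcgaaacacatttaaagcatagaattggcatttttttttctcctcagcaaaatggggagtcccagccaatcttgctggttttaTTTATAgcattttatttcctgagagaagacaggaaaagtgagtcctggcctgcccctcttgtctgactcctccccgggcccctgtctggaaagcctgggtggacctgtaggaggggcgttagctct

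Of the 10 members, 8 had an entry in the RefSeq promoter table, and Fn1 and Thbs1 had none. Both strands of these windows were searched for 7 motifs. TATAAA was present upstream of Tnc, Spp1, Thbs2 and Postn, 4 of 8, against 13.0% of 27025 promoters of the same length, 1 for each gene. It began 126 bases before the start in both Tnc and Thbs2, 211 bases before it in Spp1 and 26 bases before it in Postn. The windows of Tnc, Spp1, Thbs2 and Postn held 44.8%, 43.6%, 46.8% and 52.0% G and C bases. The median over all promoters was 52.0%. The part of base makeup in the share with TATAAA was not tested. The GC box GGGCGG was found upstream of Tnc, Tgfbi, Vcan and Bgn (4 of 8, against 32.9%), and the E-box CAGCTG upstream of Sparc and Bgn (2 of 8, against 12.8%). The AP-1 motif TGANTCA, the TEAD motif GGAATG, the EGR motif GCGTGGG and the CArG box of serum response factor were in 0 of the 8 windows. These 4 motifs were in 6.87%, 12.6%, 4.20% and 1.40% of all promoters. Of the 7 motifs, TATAAA was the one found in both Tnc and Spp1, and it was also in Thbs2, there on the opposite strand and printed as TTTATA.

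Before the values, the libraries were checked. Med23 was between 10.2 and 11.7 FPKM in the controls and between 4.23 and 5.86 FPKM in the knockouts, so the targeted gene went with the labels. Muscle stem cell markers were present in every library, with Pax7 between 32.4 and 60.3 FPKM and Myod1 between 551 and 1170 FPKM. Of the 9 such markers tested, 5 had a positive and 4 a negative log2 fold change and 0 were called. Itga7, an integrin chain gene, was at 98.5 ± 17.2 FPKM in the controls and 58.1 ± 6.96 FPKM in the knockouts without overlap (SD, n = 3; limma adjusted p = 0.0515). The cadherin gene Cdh15 was at 18.2 ± 4.57 and 32.0 ± 10.2 FPKM with overlap (SD, n = 3; limma adjusted p = 0.168). Each library had 12017 to 12465 genes above 1 FPKM, and its number of reads is unknown. The labels do not state whether the replicates are separate animals or cultures. The p-values here therefore set the group differences against no more than the spread of these libraries, and that spread may be technical. In RNA from bulk cells, fewer cells of a type and less RNA per cell cannot be told apart.

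In the order of their control levels, which FPKM allows because it is scaled by length, the members spanned a wide range. Spp1 ranked 5 among the 12336 tested genes in the controls and 24 in the knockouts. It alone made up 73.0% to 82.3% of the summed FPKM of the 10 members in the controls and 52.4% to 66.1% in the knockouts. After Spp1 came Bgn, Sparc, Tnc, Thbs1 and Fn1, and each of these 5 overlapped its next neighbour except Fn1, which lay above Vcan in every control. Vcan, Thbs2, Postn and Tgfbi followed without overlap. In knockouts Thbs1 and Tnc changed places, so that Tnc overlapped Fn1, and its rank among all tested genes went from 348 to 1199.

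**Figure D1:**
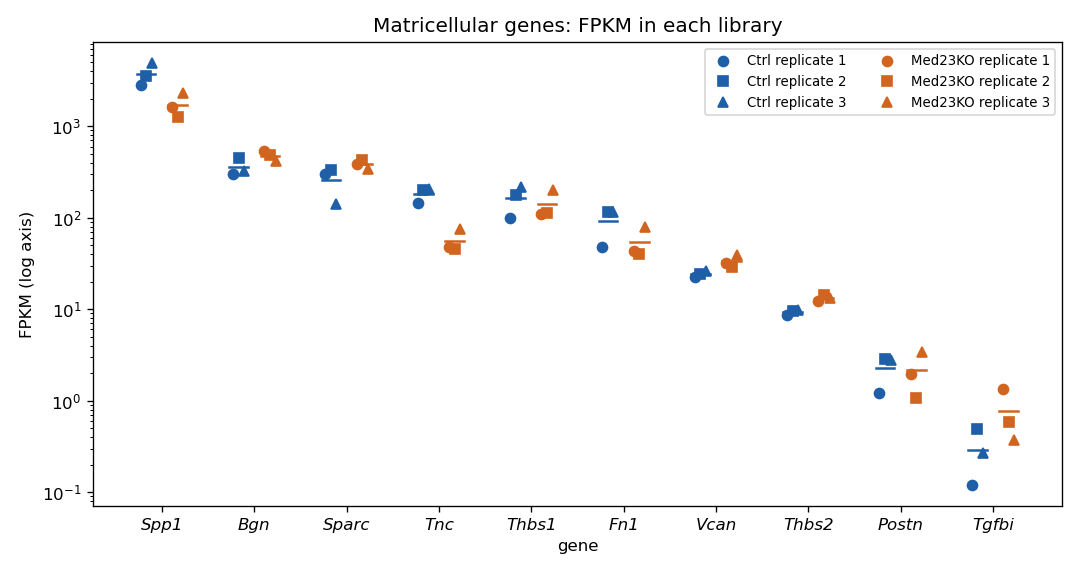
FPKM (log axis) of the 10 genes in each library, ordered by control mean. Blue points are the 3 Ctrl libraries and orange points the 3 Med23KO libraries, the marker shape gives the replicate number and the bar is the group mean. Tnc and Spp1 lie lower in all Med23KO libraries, and Sparc, Vcan and Thbs2 higher.

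Tnc (ENSMUSG00000028364.15) lies on mm10 chromosome 4, positions 63959785 to 64047015, minus strand. It had 147, 199 and 206 FPKM in Ctrl replicates 1, 2 and 3, and 47.7, 45.4 and 74.6 FPKM in Med23KO replicates 1, 2 and 3. Every knockout library lay well below the lowest control. On the log2(FPKM + 1) scale, used for all fold changes here and understating those of low genes, Tnc differed by -1.72 with an SE of 0.213 (limma, adjusted p = 0.0148). An exact two-sided permutation test over the libraries gave p = 0.1, the smallest that 3 against 3 allow. Over the 12336 genes tested, 359 passed (2.91%), 175 of them lower (1.42%) and 184 higher (1.49%), and of the 9 members 1 passed as lower and 0 as higher. With libraries scaled to equal medians the calls over all genes were 363 higher and 205 lower, where the unscaled values gave 184 and 175. The adjusted p of Tnc rose above 0.05 when Ctrl replicate 2 (0.101), Med23KO replicate 1 (0.0534) or Med23KO replicate 2 (0.0941) was left out, and when low genes were not filtered (0.124). With any 1 library left out its log2 fold change lay between -1.94 and -1.59. A transcript on the opposite strand, 8030451A03Rik, overlaps Tnc, but at 1.06 to 3.12 FPKM it was far below it in every library.

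The integrin ligands were uneven. Spp1, the osteopontin gene (ENSMUSG00000029304.14), lies on mm10 chromosome 5 from position 104435118 to 104441050, plus strand. Spp1 measured 2829, 3542 and 4856 FPKM in Ctrl replicates 1, 2 and 3 and 1615, 1261 and 2284 FPKM in Med23KO replicates 1, 2 and 3. The groups did not overlap. The log2 difference of -1.13 with an SE of 0.258 did not pass (limma, adjusted p = 0.0657) but passed the threshold without Med23KO replicate 3 (adjusted p = 0.0125) and with library weights (adjusted p = 0.0106). A gene model on the same strand, Gm42793, overlaps Spp1, so fragments of either can be assigned to the other. Gm42793 had 55.8, 87.5 and 72.4 FPKM in the controls and 20.2, 25.1 and 31.5 FPKM in the knockouts (log2 fold change -1.45, limma adjusted p = 0.0197). That call was lost in 4 of the 6 fits without 1 library (adjusted p up to 0.128), all but those without Ctrl replicate 1 and Med23KO replicate 3, and the authors' deposited table gave Gm42793 a q of 0.859.

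Osteopontin is also a product of macrophages. The 6 macrophage and leukocyte markers summed to 12.0 to 24.8 FPKM in the controls and 11.8 to 38.1 FPKM in the knockouts, mostly from Lyz2, and the groups overlapped. The defining leukocyte marker Ptprc was below 0.1 FPKM in every library, at 0.0896 FPKM or less, while Cd68 had 1.30 to 2.37 FPKM and Csf1r 0.203 to 0.660 FPKM over the 6 libraries. The part of macrophages in the Spp1 values was not tested.

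Fn1, which encodes fibronectin, had 47.5, 116 and 117 FPKM in Ctrl replicates 1, 2 and 3 and 43.8, 40.3 and 78.8 FPKM in Med23KO replicates 1, 2 and 3. Ctrl replicate 1 lay among the knockouts and Med23KO replicate 3 between the controls. The log2 fold change was -0.72 with a 95% interval of -1.63 to 0.18 (limma adjusted p = 0.362), which includes 0.

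Postn, the periostin gene, was low throughout, with 1.20, 2.87 and 2.81 FPKM in the controls and 1.96, 1.07 and 3.44 FPKM in the knockouts. The groups overlapped (log2 fold change -0.08, 95% interval -0.85 to 0.68, limma adjusted p = 0.926). Tgfbi was lower still, with 0.120, 0.489 and 0.269 FPKM in the controls and 1.36, 0.591 and 0.376 FPKM in the knockouts. It was tested only where the filter was left off, with a log2 fold change of 0.43 and a limma adjusted p of 0.809.

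The 2 thrombospondin genes differed in level. Thbs1, an activator of latent TGF-beta, had 98.1, 179 and 215 FPKM in Ctrl replicates 1, 2 and 3 and 111, 112 and 203 FPKM in Med23KO replicates 1, 2 and 3. Each group held 1 library apart from the other 2, Ctrl replicate 1 low and Med23KO replicate 3 high, and the groups overlapped (log2 fold change -0.19, 95% interval -0.97 to 0.58, limma adjusted p = 0.811). Thbs2 had 8.71, 9.57 and 9.73 FPKM in the controls and 12.3, 14.4 and 13.3 FPKM in the knockouts. Relative to their mean its libraries were the tightest of the set in both groups, and the groups did not overlap. Thbs2 (ENSMUSG00000023885.9), on the minus strand of mm10 chromosome 17 from 14665500 to 14694235, differed by 0.47 on the log2 scale with an SE of 0.106 (limma, adjusted p = 0.0654), and library weights brought it past the threshold (adjusted p = 0.0284).

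Sparc, which encodes a collagen-binding glycoprotein, had 299, 335 and 142 FPKM in Ctrl replicates 1, 2 and 3 and 388, 423 and 343 FPKM in Med23KO replicates 1, 2 and 3. All knockouts were above all controls, but Med23KO replicate 3 and Ctrl replicate 2 nearly met, and Ctrl replicate 3 was far below the other controls. Sparc differed by 0.66 on the log2 scale with an SE of 0.300 (limma, adjusted p = 0.281), and by 0.28 without Ctrl replicate 3.

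The proteoglycan genes were both higher in mean. Vcan, the versican gene, whose product binds hyaluronan, had 22.7, 24.5 and 26.1 FPKM in the controls and 31.7, 28.6 and 39.4 FPKM in the knockouts. The groups did not overlap (a log2 difference of 0.42 with an SE of 0.134, limma adjusted p = 0.144), and library weights brought Vcan past the threshold (adjusted p = 0.0439). Bgn, the gene of the small leucine-rich proteoglycan biglycan, had 303, 446 and 327 FPKM in the controls and 537, 481 and 414 FPKM in the knockouts. Ctrl replicate 2 lay above Med23KO replicate 3, so the Bgn groups overlapped (a log2 difference of 0.42 with an SE of 0.165, limma adjusted p = 0.215).

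**Figure D2:**
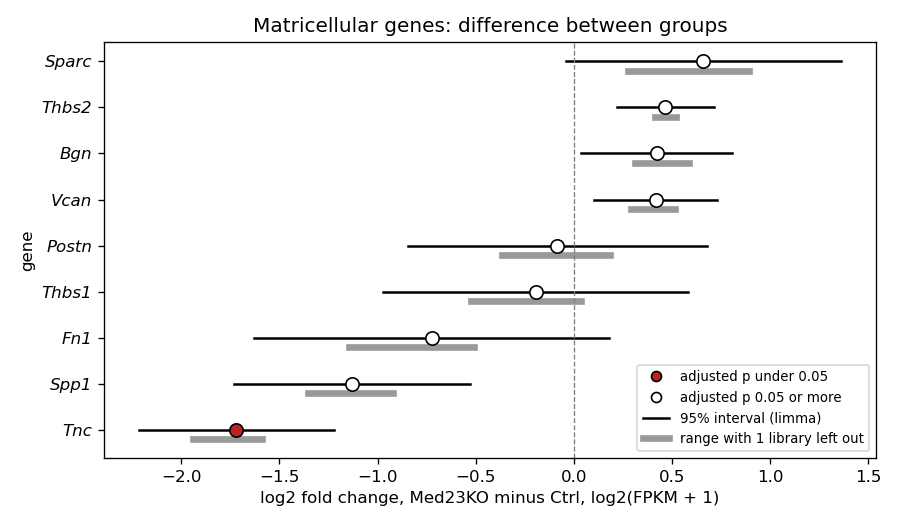
Log2 fold change (Med23KO minus Ctrl, on the log2(FPKM + 1) scale) of the 9 tested genes, with the limma 95% interval in black and the range over fits with 1 library left out in grey. Filled is the gene with an adjusted p under 0.05: Tnc, at -1.72. The intervals of Fn1, Thbs1, Postn and Sparc include 0.

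As a set, 4 of the 9 tested members had a positive and 5 a negative log2 fold change, where 5566 of all 12336 tested genes had a positive one. Their median was -0.08, beside -0.03 over all genes tested. The groups did not overlap in 5 of the 9 (Tnc and Spp1 lower, Thbs2, Vcan and Sparc higher), and they did not overlap in 24.7% of all tested genes (14.7% lower, and 1233 of the 12336 higher). The summed FPKM of the 9 members other than Spp1 was 927 to 1312 in the controls and 1147 to 1174 in the knockouts, so the sums overlapped although the makeup differed.

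The authors' deposited table, made with Cuffdiff, called 8 of the 10 members at a q under 0.05, 3 lower (Tnc, Spp1 and Fn1) and 5 higher (Bgn, Sparc, Tgfbi, Thbs2 and Vcan). Over the 13123 genes tested there, 15.7% were called, 7.04% as lower and 8.61% as higher. Fn1, with a q of 0.000695 in the authors' deposited table, was among the members whose groups overlapped in the libraries. Thbs1 and Postn were called in neither comparison.

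Some libraries held the same position in their group for many members. Ctrl replicate 1 was the lowest control in 9 of the 10 members, all but Sparc, and Ctrl replicate 3 was the highest in 6, namely Tnc, Fn1, Spp1, Thbs1, Thbs2 and Vcan. Med23KO replicate 3 was the highest knockout in 6, namely Tnc, Fn1, Spp1, Thbs1, Postn and Vcan, and the lowest in Bgn, Sparc and Tgfbi. Replicate 3 was thus the highest of its group in both groups for 5 members, Tnc, Fn1, Spp1, Thbs1 and Vcan. Med23KO replicate 2 was the lowest knockout in 5, namely Tnc, Fn1, Spp1, Postn and Vcan. For Tnc, Spp1, Fn1 and Thbs1 this placed Med23KO replicate 3 nearest to the controls, at -1.27, -0.68, -0.13 and 0.38 from the control mean (log2).

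**Figure D3:**
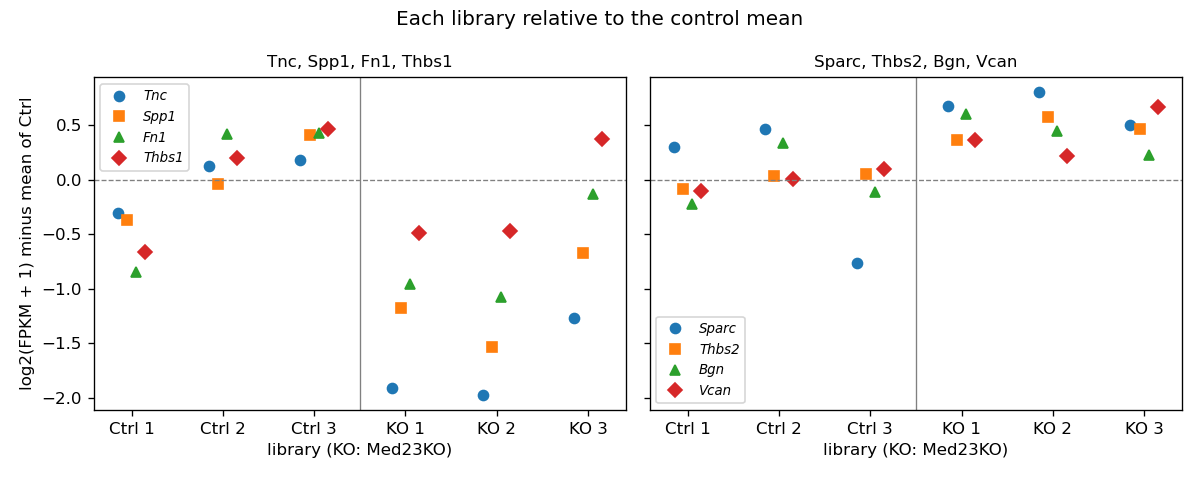
Log2(FPKM + 1) of each library minus the control mean of that gene, for the 4 genes Tnc, Spp1, Fn1 and Thbs1 (left) and the 4 genes Sparc, Thbs2, Bgn and Vcan (right). Each point is 1 library. On the left Ctrl replicate 1 is the lowest control and Med23KO replicate 3 the highest knockout for every gene.

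Other genes of the matrix were taken from lists, described by counts. For comparison with each list, 1.49% of all 12336 tested genes were called higher and 1.42% lower, and 5566 had a positive log2 fold change. The 14 further matricellular genes tested were of thrombospondins, SPARC relatives, CCN proteins and fibulins, together with Igfbp7. Of these 14, 1 was called higher and 0 lower, 12 had a positive log2 fold change and the median was 0.19. The one called was Igfbp7, which encodes an insulin-like growth factor binding protein of the matrix, at 85.3 ± 20.4 FPKM in the controls and 172 ± 20.9 FPKM in the knockouts (SD, n = 3; limma adjusted p = 0.0303). The other tenascin genes Tnxb, Tnr and Tnn stayed below 0.3 FPKM in every library, with at most 0.297 FPKM. The CCN genes Cyr61 and Ctgf, common readouts of YAP and serum response, had 130 and 42.5 FPKM in the controls and 130 and 55.4 FPKM in the knockouts on average, and neither was called.

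Among 16 receptor genes tested, 2 were called higher and 1 lower, with a median of 0.07. Cd47, the thrombospondin receptor gene, had 23.8, 21.6 and 25.1 FPKM in the controls and 45.4, 49.9 and 33.0 FPKM in the knockouts (a log2 difference of 0.82 with an SE of 0.159, limma adjusted p = 0.0430). Itgb5, an integrin beta chain that pairs with alpha v, rose from 9.16 ± 0.282 to 14.0 ± 0.756 FPKM (SD, n = 3; limma adjusted p = 0.0317). Itgb8, another partner of alpha v and an activator of latent TGF-beta, fell from 5.54 ± 0.638 to 1.96 ± 0.301 FPKM (SD, n = 3; limma adjusted p = 0.0137). The Cd47 and Itgb5 calls were each lost in 5 of the 6 fits without 1 library, with adjusted p-values up to 0.191 and 0.184, and passed without Med23KO replicate 3. Cd47 was also lost without the variance trend (adjusted p = 0.0542). The abundant chains Itgb1 (174 to 245 FPKM in the controls, 200 to 259 FPKM in the knockouts) and Itgav (42.3 to 54.7 and 47.0 to 63.2 FPKM) overlapped between groups.

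Of 14 proteoglycan and hyaluronan genes, 1 was called higher and 1 lower, with a median of 0.16. Sdc1, a cell-surface heparan sulfate proteoglycan gene, fell in every knockout, from 35.9, 43.2 and 42.2 FPKM to 18.5, 18.0 and 20.5 FPKM (a log2 difference of -1.05 with an SE of 0.110, limma adjusted p = 0.0104). The glypican gene Gpc4 rose from 25.3 ± 3.88 to 48.6 ± 7.44 FPKM (SD, n = 3; limma adjusted p = 0.0292). Among 17 TGF-beta ligand, receptor and latency genes, 0 were called higher and 1 lower, with a median of 0.15. That gene was Ltbp1, whose product holds latent TGF-beta in the matrix, at 59.5 ± 10.7 FPKM in the controls and 28.2 ± 2.34 FPKM in the knockouts (SD, n = 3; limma adjusted p = 0.0188). The ligand gene Tgfb2 had 8.61, 5.49 and 4.11 FPKM in the controls and 31.1, 22.0 and 9.54 FPKM in the knockouts and did not pass (limma adjusted p = 0.0937). The receptor gene Tgfbr2 was higher, at 15.2 ± 0.493 and 21.7 ± 2.05 FPKM (SD, n = 3, limma adjusted p = 0.0556). The ligand gene Tgfb1 was lower, at 64.4 ± 11.9 and 46.6 ± 2.79 FPKM (SD, n = 3, limma adjusted p = 0.144). Neither passed, although their groups did not overlap.

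Of 14 genes for proteases that cleave the members and for their inhibitors, 0 were called higher and 1 lower, with a median of 0.29. Plau, the urokinase gene, fell from 63.4 ± 3.51 to 29.3 ± 5.12 FPKM (SD, n = 3; limma adjusted p = 0.0148). The inhibitor gene Timp1 had 279 ± 35.9 and 189 ± 29.4 FPKM (SD, n = 3; limma adjusted p = 0.0878). The protease gene Adamts9 was higher without overlap, at 1.48 ± 0.645 and 5.37 ± 2.61 FPKM (SD, n = 3, limma adjusted p = 0.0876). Mmp3 was higher without overlap too, at 1.62 ± 0.182 and 2.97 ± 0.682 FPKM (SD, n = 3, limma adjusted p = 0.113). Of the 14 log2 fold changes, 10 were positive. The calls of Igfbp7, Gpc4, Ltbp1 and Plau were lost without Med23KO replicate 2 and in 3 other fits without 1 library each, with adjusted p-values up to 0.155. Those of Itgb8 and Sdc1 were lost without Ctrl replicate 2 (adjusted p = 0.0766 for both) or Med23KO replicate 2, and that of Itgb8 also without Ctrl replicate 3 (adjusted p = 0.0532). Without a filter on low values none of the 8 genes called in these 5 lists passed.

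Markers of other cells that a muscle sort can hold were read beside these results. The 14 fibroblast and fibro-adipogenic markers summed to 231 to 299 FPKM in the controls and 469, 400 and 307 FPKM in Med23KO replicates 1, 2 and 3. Most of that was the collagen gene Col3a1, with 138 to 182 FPKM in the controls and 183 to 286 FPKM in the knockouts. Dcn had 6.14 FPKM in the controls and 9.47 FPKM in the knockouts on average, without overlap (limma adjusted p = 0.0764). Lum had 1.26 and 2.16 FPKM, also without overlap (limma adjusted p = 0.134). Gsn had 26.1 and 42.4 FPKM with overlap (limma adjusted p = 0.215). Pdgfra had 1.28 to 3.78 FPKM over the 6 libraries, and Pi16 and Dpp4 had at most 0.0352 FPKM. Of the 12 fibroblast markers tested, 12 had a positive log2 fold change and 0 were called, with a median of 0.48, and none of the 14 was at 0 in all libraries. Over all genes tested, 5566 of 12336 log2 fold changes were positive. The sum, like Sparc, Thbs2 and Vcan, was higher in every knockout than in every control, while Bgn overlapped. Within groups the order of libraries was shared in part. The sum and Sparc were both lowest in replicate 3 of each group, and Bgn followed the order of the sum in the knockouts. In the controls the sum was highest in Ctrl replicate 1, where Thbs2, Vcan and Bgn were lowest. In the knockouts the sum and Bgn were highest in Med23KO replicate 1, Thbs2 and Sparc in Med23KO replicate 2 and Vcan in Med23KO replicate 3. The part of these cells in the higher values was not tested. The 6 tenocyte markers summed to 39.4 to 52.2 FPKM in the controls and 24.6 to 31.0 FPKM in the knockouts. Of the 3 tested, 1 had a negative and 2 a positive log2 fold change, with a median of 0.16. Most of the sum was Scx, which fell from 40.8 ± 7.00 to 22.5 ± 2.53 FPKM (SD, n = 3; limma adjusted p = 0.0344), while the defining tendon gene Tnmd was at 0 in 5 of 6 libraries and at 0.0727 FPKM in the other. Mkx had 3.32 and 3.85 FPKM and Thbs4 1.56 and 1.89 FPKM on average in the controls and the knockouts, and neither was called. The 6 pericyte and smooth muscle markers summed to 143 to 167 FPKM and 258 to 298 FPKM. Most of that was Acta2, the smooth muscle actin gene, which rose from 145 ± 13.4 to 267 ± 21.5 FPKM (SD, n = 3; limma adjusted p = 0.0137). The other 2 tested were not called and had a negative log2 fold change, Cspg4 with 9.36 and 5.92 FPKM and Pdgfrb with 2.71 and 2.64 FPKM on average, and the median of the 3 was -0.04. The Scx call was lost in each fit without 1 library other than Ctrl replicate 3 or Med23KO replicate 3 (adjusted p up to 0.149), that of Acta2 without Ctrl replicate 2 or Med23KO replicate 1 or 2, and both without a filter on low values. The part of tendon or smooth muscle cells in the results was not tested.

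**Figure D4:**
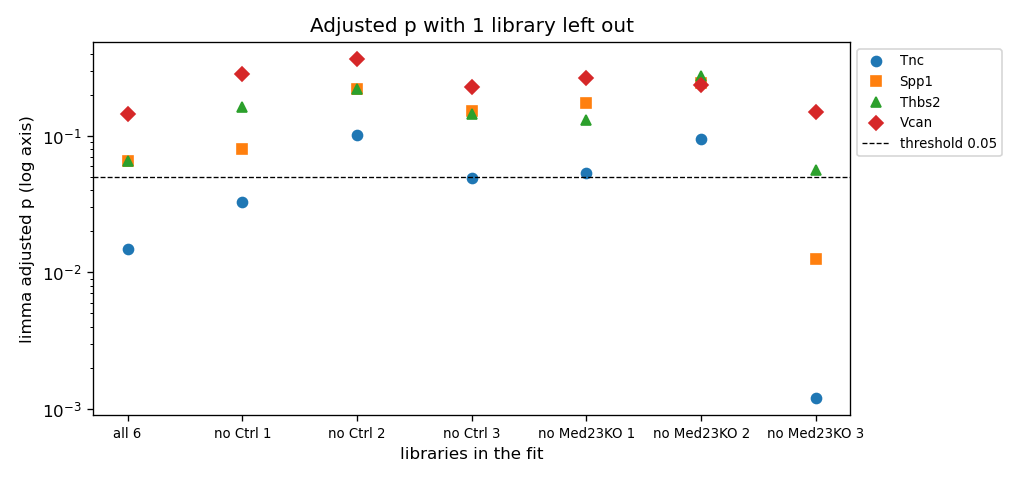
Limma adjusted p (log axis) of Tnc, Spp1, Thbs2 and Vcan with all 6 libraries and with each library left out in turn, with the threshold of 0.05 dashed. Tnc is above the line in 3 of the 6 fits with 1 library left out, and Spp1 is below it only without Med23KO replicate 3.

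The genes most like Tnc over the 6 libraries were found by the root mean square difference of log2(FPKM + 1) deviations from each gene's own mean, among 8821 other genes whose mean reached 5 FPKM. The closest were G0s2 (0.098), Sp7 (0.16), Gm42793 (0.21), Alcam (0.21) and Fam167a (0.21). G0s2, the gene of an inhibitor of fat breakdown, had 105, 137 and 130 FPKM in the controls and 31.6, 35.7 and 51.3 FPKM in the knockouts. Like Tnc, it had its lowest control in Ctrl replicate 1 and its highest knockout in Med23KO replicate 3. That likeness largely follows from how G0s2 was picked, by its values in these same libraries, and is no separate result. Among the members, Spp1 had the smallest difference from Tnc, 0.33, position 20 of the candidates, followed by Fn1 with 0.57, position 107. Gm42793 overlaps Spp1, as described with Spp1.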

How the data were processed

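RNA of 6 libraries was measured by sequencing of poly(A) RNA from strand-specific libraries, per the labels' protocols. The submitters' processing notes name STAR, Cuffdiff, cutadapt, FastQC and the mm10 build, without versions. The annotation is not given in the sources used here, nor is the use of strand in counting, so values of overlapping genes are uncertain. The authors deposited FPKM per library and, from Cuffdiff, p-values and q-values, which served only as a comparison. Depth is unknown, and precision comes from the spread of 3 libraries.

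FPKM were transformed to log2(FPKM + 1), genes whose mean reached 1 FPKM were kept (12336), and groups were compared by limma (version 3.58.1, under R 4.3.3) with its mean-variance trend, two-sided, with Benjamini-Hochberg adjustment over all genes tested and a threshold of 0.05. Scripts were tested on simulated data. Gene places are from GENCODE vM21, and 12316 of 12368 genes listed by Ensembl identifier alone were matched to a symbol. Of the listed genes, 6 were found under an older name.

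The members and lists were chosen with earlier results of these data known. All members were named, with every called gene and otherwise up to 4 with the smallest adjusted p of each list as candidates, and the 5 genes most like Tnc. Cyr61, Ctgf, Itgb1, Itgav, Csf1r, Ptprc and the minor tenascins were named after their values were seen. The markers Pax7, Myod1, Pdgfra, Pi16, Dpp4 and Tnmd were also named outside that rule. Alternatives were the pseudocount, the filter, library weights, quantile and median scaling, no variance trend, a replicate block, each library left out and the authors' q-values.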

Additional observations from a re-analysis of the deposited data

How the results depend on the processing

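The log2 fold change of Tnc was negative in every setting run. It was -1.72 without a filter on low values but no longer past the threshold, and between -1.94 and -1.59 with 1 library left out. The set had 1 member called lower and 0 called higher. With library weights 2 were lower and 2 higher, by the q-values in the authors' deposited table they were 3 and 5, and without a filter 0 were lower. With 1 library left out, between 0 and 2 were lower (2 without Med23KO replicate 3, 0 without Ctrl replicate 2 or Med23KO replicate 1 or 2). Thbs1 ranged from -0.53 to 0.0375 (without Ctrl replicate 3) and Postn from -0.36 to 0.19 over these fits, and so changed sign. Over all genes, 184 were called higher and 175 lower. These counts were 11 and 19 without a filter, where many low genes enter the test, 850 and 850 with library weights, and 1130 and 924 in the authors' deposited table. Higher calls were 298 with quantile normalization and 363 with median scaling. With 1 library left out, higher calls ran from 3 (without Med23KO replicate 2) to 749 (without Med23KO replicate 3) and lower calls from 10 to 395, and each library moved both counts by more than 1.5 times.

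Replicate numbers were no shown pairing. Deviations from the group means of libraries with the same number correlated over genes at 0.44, -0.02 and 0.56. Ctrl replicate 1 and Med23KO replicate 3 correlated at -0.57, and Ctrl replicate 3 and Med23KO replicate 1 at -0.42. Not every library correlated best with its own number. The main fit held no replicate block, so any spread shared by number stayed in its error. With a replicate block, 1180 genes were called higher and 1577 lower, and 2 members lower (Tnc and Spp1) and 3 higher (Thbs2, Vcan and Sparc).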
